A study of Mus musculus with 3 samples.

Results

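The insulin-like growth factor (IGF) axis was described here through 10 genes, taken by symbol from the 32285 genes counted in every library: the ligands Igf1 and Igf2, the receptor Igf1r, the binding proteins Igfbp2, Igfbp3, Igfbp4, Igfbp5, Igfbp6 and Igfbp7, and the protease Pappa2. Bone-lining cells (BLCs), which cover bone surfaces, had been sorted from mice labelled WT (wild type) and profiled by droplet single-cell RNA-seq. Leg and hip bones were digested with collagenase after the marrow had been flushed out, and the sort kept Alcam-positive cells that lacked Sca-1, the blood cell markers CD45 and Ter119, and the endothelial marker CD31. The labels name the tissue bone marrow and give 1 group of 3 libraries, with no age, sex, animal or batch, so the spread between these libraries may be technical. In the main test, each p-value below weighs a difference against variation between libraries, after a shift shared by all classes of a library is removed. That variation was estimated over all classes and moderated over genes, not taken from the compared classes alone. No treatment or allele differs between samples, and every comparison is between classes of cells from the same 3 libraries.

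In the IGF system, secreted ligands bind a receptor tyrosine kinase on the cell surface and promote growth and survival. Binding proteins hold the ligands in the extracellular space and prolong, restrict or localise their action, and proteases such as Pappa2 cleave binding proteins and release the ligand. In bone, Igf1 is known both as a circulating factor under the control of growth hormone and as a local product, and it drives the growth of the growth plate. Igf2 is an imprinted gene known mainly for its part in growth before birth.

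After a filter on cells and removal of likely doublets, 2476, 6363 and 9393 cells remained in libraries 1, 2 and 3, with a median of 5636, 9693 and 5747 unique molecular identifiers (UMIs, 1 per captured transcript) per cell. Cells were assigned to 16 classes by gates, that is, a minimum summed share of a fixed list of marker genes, none of which is a member of the axis. The suffix "-like" marks that a class rests on these markers alone. The gates took 15618 of 18232 cells, and 2179 cells passed no gate. A UMI sum was made for each class and library with at least 20 cells, which gave 36 sums from 15 classes. Levels are CPM, the UMIs of a gene relative to all UMIs of that sum, and since the kit counts transcript ends they were not scaled by gene length and are compared between classes for 1 gene at a time. Of the 9 classes with a sum in all libraries, the CAR-like cells (Cxcl12-abundant reticular cells, 758 cells) carried 16805 ± 1216 CPM Cxcl12 (mean ± SD, n = 3), and the osteoblast-like cells (726 cells) carried 29900 ± 13231 CPM Bglap. The tendon-like cells (146) carried 1596 ± 266 CPM Tnmd. The fibroblast-like cells (152) carried 330 ± 13.1 CPM Cd34 and 200 ± 90.5 CPM Dpt. Pi16, on the same marker list, was only at 12.5, 13.5 and 18.9 CPM in libraries 1, 2 and 3. The fibroblast gate also used Ly6a, the gene of Sca-1, although the sort kept cells that lacked Sca-1. Ly6a was at 274, 131 and 185 CPM in this class.

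The largest classes were cartilage, with 5021 growth-plate chondrocyte-like cells and 3992 cells of a Cytl1-high class gated on Wif1, Cytl1 and Myoc, whereas the labelled tissue is bone marrow. The libraries were not alike in make-up. Library 1 held 592 of the 758 CAR-like cells (23.9% of its cells against 1.10% and 1.02% in libraries 2 and 3) but only 18 growth-plate chondrocyte-like cells (0.727% against 34.2% and 30.1%), so the growth-plate and the Lef1-Notum chondrocyte-like classes have sums from libraries 2 and 3 only. The pericyte-like, Schwann-like and plasma cell-like classes have a sum from library 1 only, and their levels are single values. The libraries shared between 5 and 26 cell barcodes. Cells that the sort should have removed were present: 389 leukocyte-like and 296 erythroid-like cells served to show the level of each gene in cells of another lineage. Leukocyte-like cells also carried 226 ± 196 CPM Col2a1, the main cartilage collagen, and whether it came from free RNA or from remaining doublets was not tested.

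All 10 members lie on the autosomes. In the GRCm38 annotation (GENCODE M21; the files use mm10, the same build), Igfbp2 (chr1:72824503-72852474, plus strand) and Igfbp5 (chr1:72857932-72874884, minus strand) are tail-to-tail neighbours 5.46 kb apart, and Igfbp3 (chr11:7206086-7213923, minus strand) lies 3.54 kb from Igfbp1 (chr11:7197782-7202546, plus strand). Igfbp4 (chr11:99041244-99054392), Igfbp6 (chr15:102144362-102149511), Igfbp7 (chr5:77349240-77408041), Igf1 (chr10:87858265-87937042), Igf1r (chr7:67952827-68233668) and Pappa2 (chr1:158711727-158980490) lie apart from the others. Igf2 (chr7:142650766-142666816, minus strand) overlaps further annotated transcripts on both strands, so some of its counts may be shared with them and its values are uncertain.

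The promoters of Igfbp3, Igfbp4 and Igfbp5 are shown, a choice made after the levels were seen. Among the classes with a sum, these genes had their highest level in CAR-like cells in all 3 libraries. The sequences are the 250 bases before the RefSeq start site (GRCm38.p6), written 5′ to 3′ on the strand of the gene. Capitals mark matches to TATANA on either strand, the letters used here for a TATA box.
Igfbp3 promoter (chr11:7213924-7214173, minus strand): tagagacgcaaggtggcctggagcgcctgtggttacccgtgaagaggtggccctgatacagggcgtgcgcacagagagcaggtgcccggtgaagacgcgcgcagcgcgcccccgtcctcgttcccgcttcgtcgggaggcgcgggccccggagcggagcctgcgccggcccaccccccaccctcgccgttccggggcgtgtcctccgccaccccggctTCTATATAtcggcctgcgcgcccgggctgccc
Igfbp4 promoter (chr11:99040994-99041243, plus strand): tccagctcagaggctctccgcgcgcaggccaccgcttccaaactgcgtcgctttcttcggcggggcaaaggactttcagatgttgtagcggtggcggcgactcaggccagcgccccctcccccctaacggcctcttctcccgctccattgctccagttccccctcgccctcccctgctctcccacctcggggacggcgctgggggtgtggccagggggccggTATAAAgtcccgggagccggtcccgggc
Igfbp5 promoter (chr1:72874866-72875115, minus strand): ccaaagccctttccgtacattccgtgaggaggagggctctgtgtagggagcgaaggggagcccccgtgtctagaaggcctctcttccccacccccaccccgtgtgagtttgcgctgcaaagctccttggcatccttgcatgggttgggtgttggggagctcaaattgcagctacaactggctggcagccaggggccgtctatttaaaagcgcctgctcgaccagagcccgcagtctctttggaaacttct

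The Igfbp3 window held 2 overlapping TATANA matches, on opposite strands, that began 32 and 30 bases before the start site, and the Igfbp4 window held 1 that began 28 bases before it. Of 32851 promoter windows of this length, 22.6% held such a match, as did 3 of the 14 windows of the members. The GC box GGGCGG, found in 32.7% of all windows, was in 5 of the 14 member windows and in none of the 3 shown. The EBF palindrome, searched on both strands, was in 0.779% of all windows and in 0 of the 14. The guanine and cytosine content of the 3 windows was 73.2%, 69.2% and 58.8%, against a median of 52.4% over all windows.

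**Figure D1:**
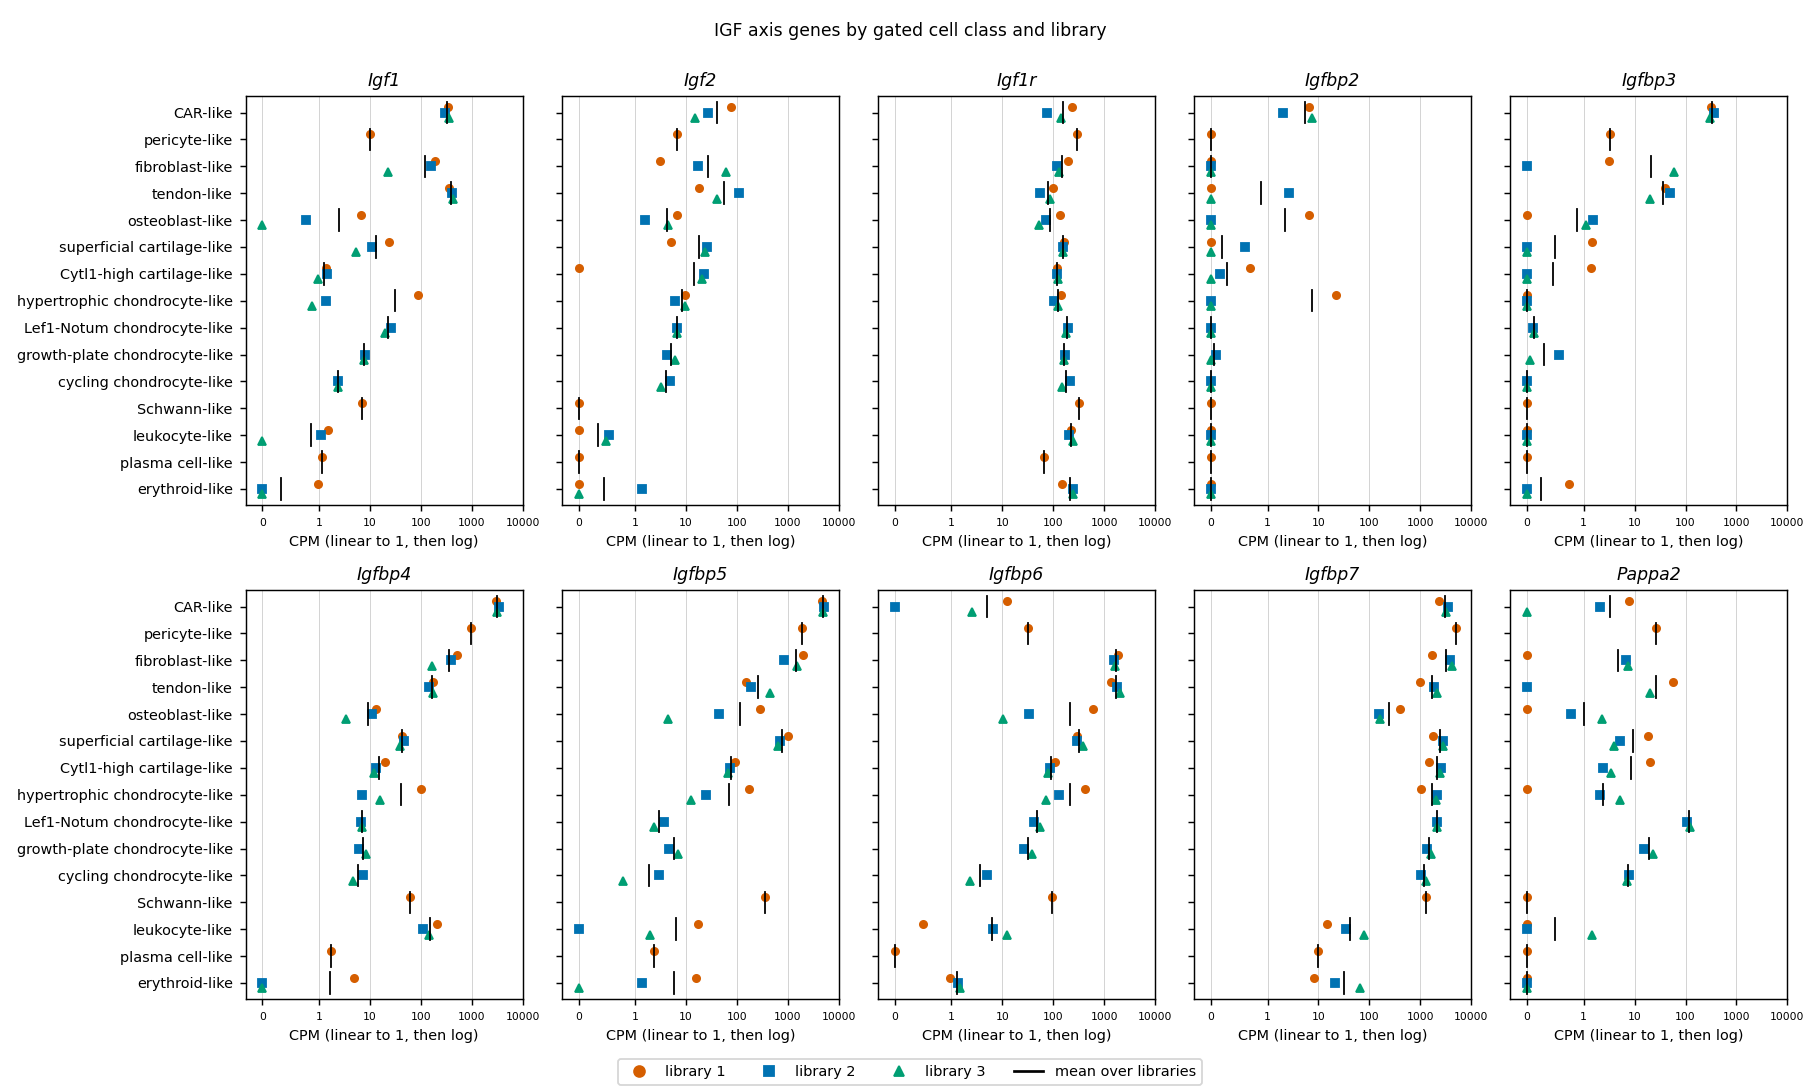
Level of each gene (CPM, an axis that is linear up to 1 and logarithmic above) in 15 gated cell classes; points are the UMI sums of 1 class in 1 library and the vertical bar is the mean over libraries. Igfbp3, Igfbp4 and Igfbp5 peak in CAR-like cells, Igfbp6 in tendon-like and fibroblast-like cells, and Pappa2 in Lef1-Notum chondrocyte-like cells (116 CPM), while the class means of Igf1r lie between 65.9 and 315 CPM.

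Igf1, the ligand, had its highest levels in 2 classes. Tendon-like cells had 351, 409 and 425 CPM in libraries 1, 2 and 3, and CAR-like cells had 348, 295 and 350 CPM. The ranges of these neighbours did not overlap, but the gap between the lowest tendon-like and the highest CAR-like library was under 2 CPM. Fibroblast-like cells followed with 190, 155 and 22.7 CPM, the last from 6 UMIs. Lef1-Notum chondrocyte-like cells had 25.8 and 19.7 CPM, and growth-plate chondrocyte-like cells had 7.91 and 7.70 CPM. Osteoblast-like cells held 2 Igf1 UMIs in 726 cells. Leukocyte-like cells, taken as background, lay at 0.856 ± 0.767 CPM. An Igf1 UMI was found in 70.2 ± 12.2% of CAR-like cells (median depth 5718 UMIs), in 61.6 ± 13.8% of tendon-like cells (6027) and in 1.33 ± 1.16% of leukocyte-like cells (13717). At a common depth of 1000 UMIs per cell the shares were 24.8 ± 2.87%, 21.0 ± 4.24% and 0.300 ± 0.520%.

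The few Igf1 UMIs of other classes were often held by 1 cell. The hypertrophic chondrocyte-like sum of library 1 stood at 89.2 CPM, with 26 of its 28 UMIs in 1 of 33 cells, while the same class had 1.37 and 0.878 CPM in libraries 2 and 3. In superficial cartilage-like cells of library 1, 22 of 32 UMIs came from 1 of 211 cells. In contrast, the CAR-like sum of library 1 had its 1251 Igf1 UMIs in 372 cells, with 30 in the top cell, and the tendon-like sums had at most 18.8% of theirs in 1 cell.

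Igf2, the other ligand, was low in every class. Its highest mean was in tendon-like cells, with 18.0, 108 and 40.5 CPM (6, 41 and 8 UMIs), followed by CAR-like cells with 76.8, 26.7 and 15.2 CPM and fibroblast-like cells with 3.12, 16.9 and 60.5 CPM. The libraries differed in which of these classes stood highest, and all neighbours among the 3 overlapped. Superficial cartilage-like cells had 5.12, 25.5 and 23.0 CPM. In libraries 2 and 3 the largest share of all Igf2 UMIs, 37.7% and 41.2%, lay in the Cytl1-high cartilage-like class, which is numerous there (1373 and 2430 cells), and in library 1, 72.1% lay in CAR-like cells.

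Igf1r, the receptor for both ligands, was found in every class. Mean levels ran from 65.9 CPM in plasma cell-like cells to 315 CPM in Schwann-like cells (both library 1 only), and among classes with all libraries from 80.2 ± 22.4 CPM in tendon-like to 222 ± 19.9 CPM in leukocyte-like cells. Growth-plate chondrocyte-like cells stood at 170 and 164 CPM, superficial cartilage-like cells at 158 ± 3.83 CPM and osteoblast-like cells at 138, 70.8 and 51.8 CPM. Most neighbours in this order overlapped. CAR-like cells varied most between libraries, with 238, 75.9 and 144 CPM. Over whole libraries Igf1r was at 174, 160 and 155 CPM.

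Among the classes with a sum, Igfbp3, Igfbp4 and Igfbp5 were highest in CAR-like cells. Igfbp3, the main carrier of IGFs in serum, was at 315, 369 and 297 CPM there. The next classes were tendon-like cells with 39.0, 50.1 and 20.3 CPM and fibroblast-like cells with 3.12, 0 and 60.5 CPM, and in the latter all 16 UMIs of library 3 came from 3 cells and 12 of them from 1 cell. Igfbp3 was at or below 3.27 CPM in every other class with a sum. No UMI was found in 389 leukocyte-like cells, which allows up to 0.506 CPM (3 counts of that sum). The 10 endothelial-like cells were too few for a sum but held 0.498% to 0.791% of the Igfbp3 UMIs of a library. Their level was therefore not compared with that of CAR-like cells. CAR-like cells held 94.1%, 71.1% and 64.3% of all Igfbp3 UMIs in libraries 1, 2 and 3.

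Igfbp4, a binding protein that is cleaved by the protease Pappa, was at 3022, 3469 and 3074 CPM in CAR-like cells, and 98.7 ± 1.11% of these cells had a UMI of it. Pericyte-like cells followed at 977 CPM (library 1), where Cxcl12, an abundant CAR-like transcript, was at 118 CPM. The CAR markers together had a median of 7.04 per 10000 UMIs in pericyte-like cells, against 285 in CAR-like cells. Whether CAR-like RNA contributed to the pericyte-like value was not tested. Fibroblast-like cells had 505, 398 and 163 CPM and tendon-like cells had 174, 145 and 172 CPM. Leukocyte-like cells carried Igfbp4 as well, at 206, 112 and 142 CPM, and 58.3 ± 7.68% of them had a UMI (median depth 13717), against 2.45 ± 4.24% of erythroid-like cells (10086). At 1000 UMIs per cell these shares were 10.7 ± 1.96% and 0.198 ± 0.344%. Osteoblast-like and growth-plate chondrocyte-like cells lay at 9.09 ± 5.09 and 7.27 ± 1.73 CPM.

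Igfbp5, a binding protein that also binds bone mineral and matrix, was at 4688, 5104 and 4820 CPM in CAR-like cells. It was widespread in connective tissue classes: 1852 CPM in pericyte-like cells, 1996, 823 and 1538 CPM in fibroblast-like cells, 1017, 692 and 629 CPM in superficial cartilage-like cells and 153, 187 and 436 CPM in tendon-like cells. The CAR-like range lay clear of all these. Within cartilage the level differed by class, from superficial over Cytl1-high (75.9 ± 12.3 CPM) to growth-plate cells (4.63 and 6.94 CPM). This is an order of levels, not of depth in the tissue. Cytl1-high cells also carried the superficial markers, at a median of 465 per 10000 UMIs against 327 in superficial cells. The superficial class holds cells past the superficial gate that failed the gate on Wif1, Cytl1 and Myoc. Osteoblast-like cells spread from 4.50 CPM in library 3 over 44.6 in library 2 to 289 in library 1. In library 1, 42 of 44 UMIs came from 3 of 28 cells, and in library 2, 46 of 58 came from 3 of 309 cells. The neighbouring gene Igfbp2 was too sparse for its pattern to be compared: it had 119 UMIs in 50 of all 18232 cells, and CAR-like cells held 23, 1 and 3 of them (6.40, 2.05 and 7.60 CPM). The highest mean of Igfbp2, in hypertrophic chondrocyte-like cells, rests on 7 UMIs of 1 cell in library 1, and libraries 2 and 3 had 0.

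Igfbp6, a binding protein with preference for Igf2, had a different distribution. Tendon-like cells stood at 1359, 1772 and 2031 CPM and fibroblast-like cells at 1862, 1578 and 1618 CPM, and these overlapped. Superficial cartilage-like cells had 296, 294 and 377 CPM. CAR-like cells had 12.2, 0 and 2.53 CPM, with 31 of the 44 UMIs of library 1 in 3 of 592 cells. Leukocyte-like cells had 0.494, 6.51 and 12.1 CPM, and the ranges of the 2 classes overlapped. Osteoblast-like cells were at 611, 33.8 and 10.1 CPM, and in library 1 64 of 93 UMIs came from 3 cells. Ungated cells held 48.8%, 27.4% and 27.2% of the Igfbp6 UMIs, so a large part of this transcript lay outside the named classes.

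Igfbp7, a secreted protein related to the binding proteins that binds IGFs weakly, was found in all mesenchymal classes. Means ran from 240 ± 139 CPM in osteoblast-like cells over 1490 ± 169 CPM in growth-plate and 2461 ± 581 CPM in superficial cartilage-like cells to 2998 ± 586 CPM in CAR-like, 3248 ± 1337 CPM in fibroblast-like and 5121 CPM in pericyte-like cells. Apart from the pericyte-like value, most neighbours overlapped between libraries. Leukocyte-like cells had 14.8, 34.7 and 77.6 CPM and erythroid-like cells 31.4 ± 29.6 CPM. Library 1 had the lowest Igfbp7 level in CAR-like, fibroblast-like, tendon-like, superficial, Cytl1-high and hypertrophic cells, and the highest in osteoblast-like cells.

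Pappa2, the protease that cleaves Igfbp3 and Igfbp5, was concentrated in Lef1-Notum chondrocyte-like cells. This class was gated on Lef1, Notum, Sfrp5, Axin2 and Nkd2, targets or modulators of Wnt signalling, within cartilage. Lef1, Notum and Sfrp5 ranged from 239 to 399 CPM in the class, but Axin2 and Nkd2 only from 4.47 to 6.24 CPM. Pappa2 stood there at 109 and 123 CPM in libraries 2 and 3, against 15.6 and 22.6 CPM in growth-plate chondrocyte-like cells. Pericyte-like cells were at 26.1 CPM, with 7 of 8 UMIs in 1 cell, and tendon-like cells at 57.0, 0 and 20.3 CPM, with 17 of 19 UMIs of library 1 in 3 cells. The remaining classes lay at 9.13 CPM or lower on average. Lef1-Notum cells held 59.5% and 56.3% of all Pappa2 UMIs in libraries 2 and 3. A UMI was present in 33.9 ± 2.50% of these cells (median depth 8467), against 9.03 ± 0.621% of growth-plate cells (9478) and 0.179 ± 0.310% of leukocyte-like cells (13717), and at 1000 UMIs per cell the shares were 10.5 ± 0.235%, 2.36 ± 0.447% and 0%. Of the Lef1-Notum cells, 48.0% lay within 2 times the threshold of their gate, as did 59.3% of plasma cell-like, 32.9% of fibroblast-like, 29.2% of superficial and 22.8% of Cytl1-high cells, and 17.3% or less of each other class.

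**Figure D2:**
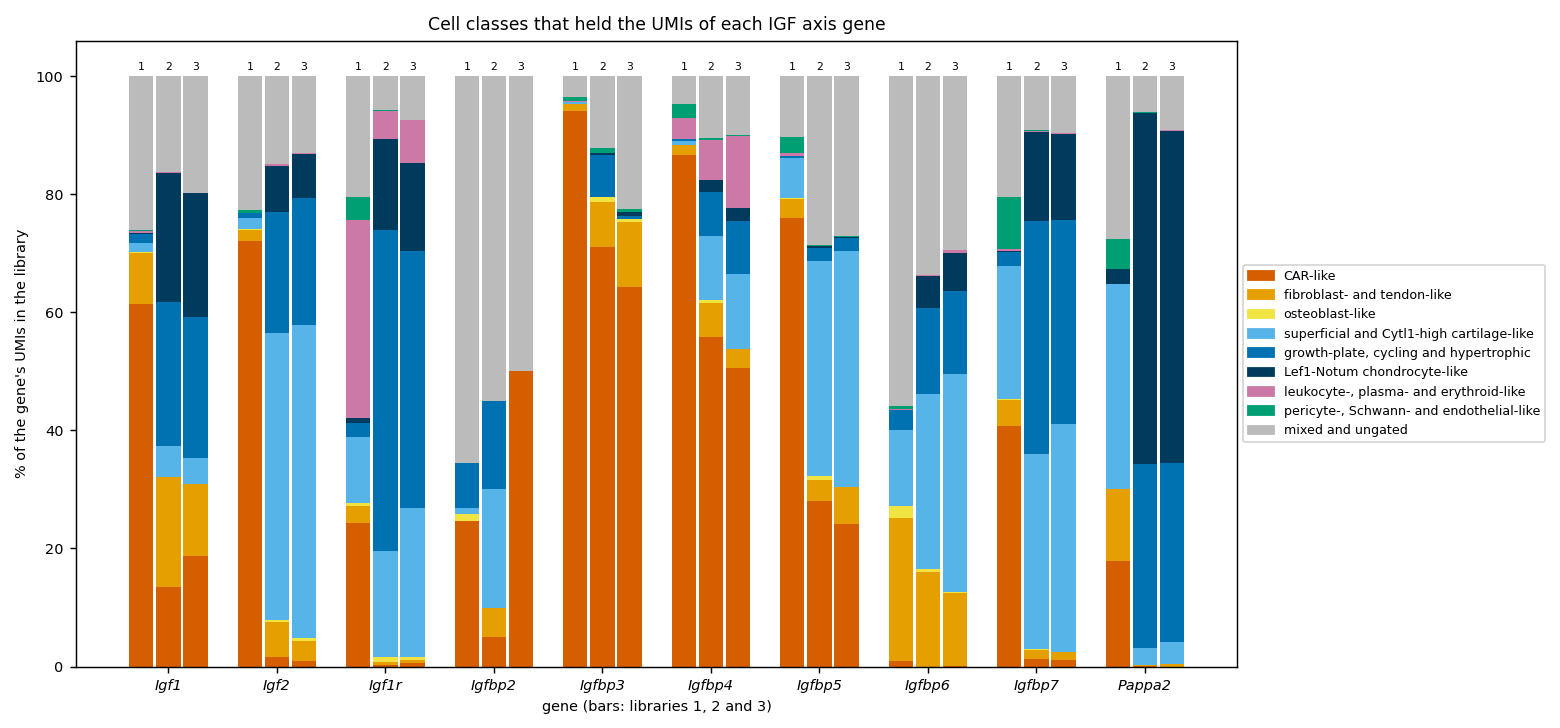
Share of all UMIs of each gene that each group of cell classes held, as percent of the UMIs of that gene in the library, with bars for libraries 1, 2 and 3. CAR-like cells held 94.1%, 71.1% and 64.3% of the Igfbp3 UMIs, and Lef1-Notum cells held 59.5% and 56.3% of the Pappa2 UMIs in libraries 2 and 3; the Igfbp2 bars rest on 93, 20 and 6 UMIs.

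The make-up of the libraries showed in the whole-library levels. Igfbp5 was at 1098, 124 and 133 CPM, Igfbp4 at 621, 42.3 and 40.5 CPM, Igfbp3 at 59.7, 3.53 and 3.07 CPM and Igf1 at 101, 15.0 and 12.5 CPM in libraries 1, 2 and 3, that is, highest in the library with 23.9% CAR-like cells. Pappa2 ran the other way, at 7.73, 23.4 and 29.0 CPM. Within CAR-like cells themselves, library 1 had the lowest level of Igfbp4 and Igfbp5 of the 3.

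Classes were then compared across libraries with edgeR's quasi-likelihood test on the UMI sums, with the library as a block and Benjamini-Hochberg adjustment over 15091 genes. CAR-like and osteoblast-like cells, the first a stromal and the second a bone-forming class, differed at 7 of the 10 members, while 26.8% of all genes tested were called at an adjusted p below 0.05 (14.3% higher, 12.5% lower). 6 members were higher in CAR-like cells and 1 was lower. The ranges of the 6 did not overlap between the classes, and each was higher in 3 of 3 libraries. Igfbp4 was higher by 8.06 ± 0.486 on the log2 scale (SE, n = 3 sums per class, edgeR adjusted p = 4.47e-15), Igfbp5 by 5.98 ± 0.651 (3.50e-09) and Igfbp7 by 3.39 ± 0.373 (4.57e-09). Igf1 was higher by 7.90 ± 0.822 (edgeR adjusted p = 1.33e-09) and Igfbp3 by 7.52 ± 0.684 (3.26e-10), both against almost no UMIs in osteoblast-like cells. From counts pooled over libraries, 1533 against 2 UMIs for Igf1 gave a ratio of 401 (95% interval 111 to 3312, counting error only), and 1431 against 3 UMIs for Igfbp3 gave 249 (85.2 to 1211). Library 1 supplied 592 of the 758 CAR-like but only 28 of the 726 osteoblast-like cells, so these ratios do not hold the library constant. Igf2 was higher by 4.09 ± 0.883 (edgeR adjusted p = 0.000469).

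Igfbp6 was the member that was lower in CAR-like than in osteoblast-like cells, by −4.32 ± 0.814 (edgeR adjusted p = 7.79e-05). It was lower in 3 of 3 libraries, but the ranges overlapped, and the library 1 osteoblast-like sum with its 3 cells of 64 UMIs was the highest. Igf1r (0.64 ± 0.278, adjusted p = 0.0863), Igfbp2 (1.92 ± 1.81, 0.491) and Pappa2 (0.31 ± 1.21, 0.905) did not pass the test, although Igf1r did with stricter gates (0.79, edgeR adjusted p = 0.0353). Osteoblast-like cells were shallow, with a median of 2254 UMIs against 5718 in CAR-like cells. The library 1 osteoblast-like sum of 28 cells stood apart in markers. It had 14655 CPM Bglap against 36651 and 38394 in libraries 2 and 3, and 47518 CPM Col1a1 against 109660 and 105598.

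**Figure D3:**
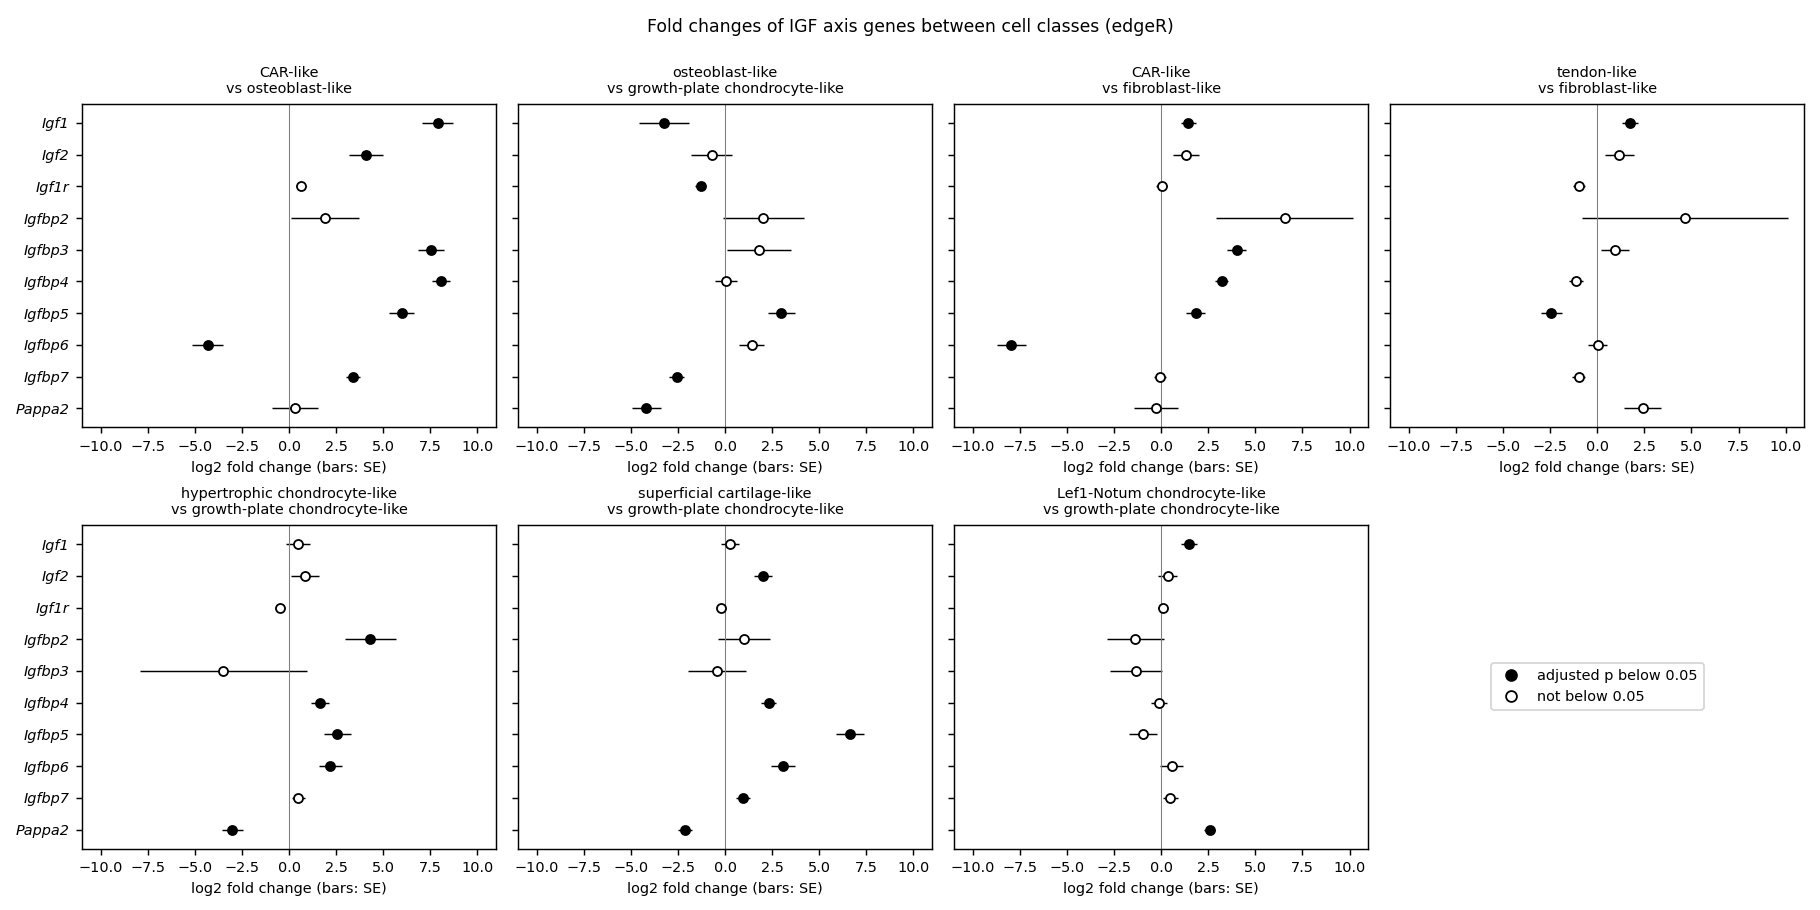
Log2 fold change of each gene (edgeR; points, bars are standard errors) for 7 comparisons between cell classes, the first-named class over the second, with filled points where the adjusted p was below 0.05. CAR-like cells lie right of 0 for Igf1, Igfbp3, Igfbp4 and Igfbp5 and left of 0 for Igfbp6 against both osteoblast-like and fibroblast-like cells.

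CAR-like and fibroblast-like cells differed at 5 members (4 higher, 1 lower), where 19.2% of all genes were called (9.53% higher, 9.66% lower). None of the 5 overlapped in range, and each had the same direction in 3 of 3 libraries. Igfbp3 was higher in CAR-like cells by 4.01 ± 0.505 (edgeR adjusted p = 3.84e-07), Igfbp4 by 3.21 ± 0.344 (6.33e-09), Igfbp5 by 1.83 ± 0.515 (0.00854) and Igf1 by 1.44 ± 0.413 (0.0102). Igfbp6 was lower by −7.97 ± 0.779 (edgeR adjusted p = 7.82e-10), with 45 UMIs in 758 CAR-like against 1493 in 152 fibroblast-like cells. Igfbp7 (−0.08 ± 0.322), Igf1r (0.02 ± 0.274), Igf2 (1.31 ± 0.693) and Pappa2 (−0.28 ± 1.17) did not pass, with edgeR adjusted p from 0.208 to 1. Igf2 depended on the libraries and gates: it was −0.85 without library 1 (edgeR adjusted p = 0.370), 3.05 and called without library 3 (0.0307), and also called with stricter gates (3.22, 0.0231) and with no filter by expression (1.35, 0.00468). For Igfbp2, 27 UMIs against 0 made CAR-like cells at least 1.77-fold higher (3 counts over the fibroblast-like sums as the floor), which the test did not call (adjusted p = 0.242). The call on Igf1 was lost without library 3 (0.88, adjusted p = 0.319), the library in which fibroblast-like cells had few Igf1 UMIs, and without the library block (1.37, 0.0569). The call on Igfbp5 was lost without library 2 (1.45, adjusted p = 0.253) and without the block (1.72, 0.0799), which left 3 members called. DESeq2 called 2, Igfbp4 and Igfbp6, with adjusted p of 0.227 for Igfbp3, 0.0874 for Igf1 and 0.0979 for Igfbp5.

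Tendon-like and fibroblast-like cells, both collagen-producing connective tissue cells, differed at 2 members, against 5.09% of all genes (2.32% higher, 2.77% lower). Igf1 was higher in tendon-like cells by 1.71 ± 0.424 (edgeR adjusted p = 0.00962) and Igfbp5 was lower by −2.45 ± 0.563 (0.00485), both without overlap and in 3 of 3 libraries. Igfbp6 was at 0.02 ± 0.499 (adjusted p = 1). Igf1r (−0.99 ± 0.322) and Igfbp4 (−1.14 ± 0.368) had edgeR adjusted p of 0.0716 and 0.0675, and Igfbp7, lower on average, had 0.0730. Igf2 (1.17 ± 0.774), Igfbp3 (0.93 ± 0.746) and Pappa2 (2.41 ± 0.985) also did not pass, and Igfbp2 had 1 UMI in the 2 classes together. Igf1 did not pass without the block (1.62, adjusted p = 0.0760), without library 2 (2.20, 0.0747) or without library 3 (1.20, 0.285). Igfbp5 did not pass without library 2 (−2.47, 0.127). Other members gained a call: Igfbp3 without library 3 (4.75, edgeR adjusted p = 0.00991), Igfbp7 without library 1 (−1.10, 1.19e-05), Igfbp4 with stricter gates (−1.51, 0.0167) and Igf1r with looser gates (−1.03, 0.0345). With no filter by expression Igf1r, Igfbp4, Igfbp7 and Pappa2 passed in addition. DESeq2, and edgeR without library 2, called 0 members, with 4 at an unadjusted p below 0.05 in each. The CAR-like and tendon-like comparisons share the fibroblast-like sums, so they are not independent.

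The 4 comparisons within cartilage and bone share the growth-plate chondrocyte-like sums of libraries 2 and 3, so their directions are counted in those 2 libraries. Osteoblast-like against growth-plate cells gave 5 called members, where 42.1% of all genes were called (16.8% higher, 25.3% lower). Igfbp7 was lower in osteoblast-like cells by −2.57 ± 0.393 (edgeR adjusted p = 1.84e-06), Igf1r by −1.30 ± 0.283 (0.000301), Pappa2 by −4.19 ± 0.758 (3.01e-05) and Igf1 by −3.26 ± 1.32 (0.0450). None of these 4 overlapped, and each was lower in 2 of 2 libraries with both classes. The counts were also pooled over libraries, with library 1 in the osteoblast-like pool only. There, 1002 against 3 Pappa2 UMIs gave a ratio of 14.4 (95% interval 4.92 to 70.0), and 424 against 2 Igf1 UMIs gave 9.15 (2.52 to 75.8). Igfbp5 was higher by 2.98 ± 0.716 (edgeR adjusted p = 0.000902), but the ranges overlapped: library 2 had 44.6 against 4.63 CPM, library 3 had 4.50 against 6.94 CPM. That call rests on few cells, since 3 cells held 42 of 44 osteoblast-like Igfbp5 UMIs in library 1 and 46 of 58 in library 2.

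Igfbp6 did not pass in that comparison (1.41 ± 0.668, edgeR adjusted p = 0.0883), but it was called higher under 6 alternatives: no doublet removal (1.67, 0.0394), looser gates (1.77, 0.0168), RLE (1.74, 0.0433), no filter by expression (1.44, 8.55e-06), no block (1.96, 0.0409) and without library 3 (2.54, 0.0250). Without library 1 its value was −0.22 (edgeR adjusted p = 0.626). Igf2 (−0.71 ± 1.09), Igfbp2 (2.02 ± 2.16), Igfbp3 (1.81 ± 1.70) and Igfbp4 (0.04 ± 0.587) did not pass either. The median of all genes was −0.28 on this scale with the TMM normalisation used here and 0.02 with RLE normalisation, and the share of calls that were higher moved from 39.9% to 55.1% (57.4% with DESeq2). Relative to that median of −0.28, the directions of the 5 called members were the same. Igf1 was no longer called with RLE (−2.96, adjusted p = 0.101), without the block (−3.15, 0.0910), or without library 2 (−3.36, 0.169) or 3 (−2.60, 0.138). Igf1r did not pass without library 3 (−1.14, 0.0689), nor Igfbp5 without library 2 (2.73, 0.0870).

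Superficial cartilage-like cells were gated on Prg4 and other genes of the joint surface, with cells past the Cytl1-high gate left out. They differed from growth-plate cells at 6 members, against 34.4% of all genes. Library 1 stood apart in markers of this class, with 107471 CPM Prg4 against 37351 and 38647 in libraries 2 and 3, and 181 CPM Cilp2 against 1254 and 1259. Igfbp5 was higher by 6.63 ± 0.764 (edgeR adjusted p = 1.46e-08), Igfbp6 by 3.07 ± 0.626 (0.000200), Igfbp4 by 2.31 ± 0.396 (1.77e-05) and Igfbp7 by 0.94 ± 0.373 (0.0480), all without overlap and in 2 of 2 libraries. Igf2 was higher by 1.99 ± 0.476 (edgeR adjusted p = 0.00121) in 2 of 2 libraries, with library 1 inside the growth-plate range. Pappa2 was lower by −2.14 ± 0.378 (edgeR adjusted p = 3.37e-05) in 2 of 2 libraries, while the 18.3 CPM of library 1 overlapped. Without library 1 these 6 were again past the threshold (Pappa2 −2.14, adjusted p = 7.47e-08; Igf2 2.18, 1.07e-09; Igfbp7 0.83, 9.43e-06). Without the block Igfbp7 (0.63, 0.435) and Pappa2 (−1.44, 0.0633) did not pass. With stricter gates the call on Igfbp7 was lost as well (0.67, edgeR adjusted p = 0.261). Igf1 (0.24 ± 0.478), Igf1r (−0.22 ± 0.253), Igfbp2 (1.02 ± 1.39) and Igfbp3 (−0.46 ± 1.54) did not pass, while Igf1 was called lower with stricter gates (−1.49, edgeR adjusted p = 0.00205). Without library 2, 2 members were called (Igfbp4 and Igfbp5), without library 3 there were 3 (with Igfbp6), and DESeq2 called the same 3. With RLE normalisation the median of all genes moved from −0.03 to 0.08.

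Hypertrophic chondrocyte-like cells were gated on Col10a1, Ihh, Panx3, Ibsp, Pth1r and Mmp13. Ibsp was by far the highest of these markers, at 63456, 52704 and 51671 CPM in libraries 1, 2 and 3. The class differed from growth-plate cells at 5 members, against 15.5% of all genes (5.92% higher, 9.53% lower). Its library 1 sum of 33 cells stood apart in the markers themselves, with 284 CPM Col10a1 against 957 and 913 in libraries 2 and 3, and 2501 CPM Mmp13 against 305 and 272. Col10a1 was not particular to the class, since Cytl1-high cartilage-like cells carried 555 ± 199 CPM. Pappa2 was lower by −3.01 ± 0.581 (edgeR adjusted p = 0.000337) and Igfbp6 was higher by 2.19 ± 0.626 (0.0130), both without overlap and in 2 of 2 libraries. Igfbp5 was higher by 2.57 ± 0.706 (edgeR adjusted p = 0.00970) and Igfbp4 by 1.64 ± 0.466 (0.0121), each highest in library 1 (169 and 102 CPM). The ranges overlapped for Igfbp4, whose lowest hypertrophic sum had 6.87 CPM against 8.50 CPM in the higher growth-plate sum. The calls on Igfbp5 and Igfbp4 rest on few cells. For Igfbp5, 32 of 53 UMIs lay in 3 cells in library 1, 24 of 35 in 1 cell in library 2 and 8 of 14 in 3 cells in library 3. For Igfbp4, 3 cells held 16 of 32, 5 of 10 and 8 of 18 UMIs in libraries 1, 2 and 3. Igfbp2 was called higher by 4.31 ± 1.35 (edgeR adjusted p = 0.0276) on the 7 UMIs of 1 cell.

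Without library 1, Igfbp6 (1.96, edgeR adjusted p = 2.72e-08), Igfbp5 (1.96, 0.00768) and Pappa2 (−2.19, 0.000300) kept their call and direction, Igfbp4 (0.82, 0.232) did not pass, and Igfbp2 was not tested. Igf1, at 0.49 ± 0.637 with all libraries (adjusted p = 0.684), was lower by −2.51 without library 1 (0.0312), and Igfbp7, at 0.50 ± 0.365 (0.418), was higher by 0.72 (0.000245). Without library 2 edgeR called 0 members, with 4 at an unadjusted p below 0.05, without library 3 it called 3, and DESeq2 called 1 (Igfbp4). Without the block Pappa2 did not pass (−2.52, 0.0572). With no doublet removal the calls on Igfbp5 (1.28, edgeR adjusted p = 0.213) and Igfbp2 (3.73, 0.0559) were lost. Igf1r (−0.48 ± 0.263), Igf2 (0.84 ± 0.766) and Igfbp3 did not pass, with 0 Igfbp3 UMIs in the hypertrophic class. With RLE normalisation the median of all genes moved from −0.13 to 0.02 and the share of calls that were higher from 38.3% to 53.5% (58.2% with DESeq2).

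The comparison of Lef1-Notum with growth-plate chondrocyte-like cells was added after the levels had been seen, so its values for Pappa2 and Igf1 describe a pattern already noticed. 2 members were called, both higher, against 3.96% of all genes (2.05% higher, 1.92% lower). Pappa2 was higher by 2.58 ± 0.296 (edgeR adjusted p = 1.73e-06) and Igf1 by 1.49 ± 0.421 (0.0349), in 2 of 2 libraries and without overlap. Igfbp7 (0.49 ± 0.391), Igfbp6 (0.55 ± 0.610), Igf2 (0.34 ± 0.505), Igf1r (0.09 ± 0.270), Igfbp4 (−0.13 ± 0.426) and Igfbp5 (−0.98 ± 0.751) did not pass, nor did Igfbp2 (−1.37 ± 1.49) and Igfbp3 (−1.34 ± 1.37), which had 0 and 2 UMIs in Lef1-Notum cells. Without the block 160 in place of 598 genes were called and Igf1 did not pass (edgeR adjusted p = 0.248). Library 1 has no sum of either class (6 and 18 cells), and without it 12979 in place of 15091 genes were tested, 3481 genes were called, and the members called were 4, with Igfbp6 (0.56, edgeR adjusted p = 0.0167) and Igfbp7 (0.49, 0.00912) added. Without library 2 or 3, 1 sum per class remained, whose spread was taken from the other classes, and no gene passed with edgeR, while 1 and 2 members had an unadjusted p below 0.05. DESeq2 called 0 members, with 1 at an unadjusted p below 0.05.

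The remaining IGF pathway was followed through 23 further genes, of which 20 were tested and 3 (Igf2bp1, Igfbp1 and Igfbpl1) had too few counts. Against osteoblast-like cells 7 of the 20 were called in CAR-like cells (6 higher, 1 lower; median log2 fold change 0.43, against 0.09 over all genes, of which 26.8% were called), and against fibroblast-like cells 9 (8 higher, 1 lower; 0.86 against 0.06, with 19.2% of all genes called). The named genes all passed the same edgeR test (adjusted p below 0.05). Pappa, the protease related to Pappa2 that cleaves Igfbp4, was higher in CAR-like cells by 6.59 and 4.74 in these comparisons, at 1003 ± 143 CPM against 5.53 ± 7.08 in osteoblast-like and 36.3 ± 20.0 in fibroblast-like cells. Ghr, the growth hormone receptor, stood at 1763 ± 353 CPM in CAR-like cells and was higher by 2.82 against osteoblast-like cells. Igf2bp3 encodes a protein that binds Igf2 mRNA. It was higher by 2.87 against osteoblast-like cells (edgeR adjusted p = 0.0412), where it was barely detected, at 0.256 ± 0.444 CPM. Against fibroblast-like cells Igf2bp3 did not pass and leaned lower in CAR-like cells (−1.61, edgeR adjusted p = 0.0553). Adam12, another protease of binding proteins (3.90), and Igf2bp2 (3.52) were, after Pappa, the largest against fibroblast-like cells. Stc2, an inhibitor of Pappa, was lower against osteoblast-like cells (−2.77), and Htra1, a secreted protease, against fibroblast-like cells (−1.16).

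Of the same 20 genes, 14 were called between osteoblast-like and growth-plate cells (6 higher, 8 lower), 11 between superficial and growth-plate cells (3 higher, 8 lower), 6 between hypertrophic and growth-plate cells (3 higher, 3 lower), 2 between tendon-like and fibroblast-like cells and 0 between Lef1-Notum and growth-plate cells (edgeR; 5 at an unadjusted p below 0.05). Of all genes tested, 42.1%, 34.4%, 15.5%, 5.09% and 3.96% were called in these comparisons. In osteoblast-like cells the largest differences were lower Igf2bp3 (−4.18), H19 (−4.04) and Pappa (−3.15) and higher Foxo3 (2.49), Irs1 (1.66) and Insr (1.48), the last being the insulin receptor and Irs1 the adaptor of both receptors. H19, the imprinted RNA gene beside Igf2, stood at 76.9 ± 1.58 CPM in growth-plate cells and was lower in superficial (−2.08) and hypertrophic cells (−1.40) as well, together with Adam12 (−3.89 and −2.26). Stc2 was lower in superficial cells (−1.44) and Pappa in hypertrophic cells (−1.96). Foxo3, a transcription factor restrained by IGF signalling, was higher in both (1.02 and 1.14), as were Htra1 (1.08) and Insr (0.66) in superficial and Stc2 (1.30) and Shc1 (0.75) in hypertrophic cells. Tendon-like cells had higher H19 (2.99) and Ghr (1.01) than fibroblast-like cells, and H19 there was at 0 to 167 CPM between libraries.

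The genes whose levels over the 36 sums were most like each member were found among 14313 genes by Pearson correlation of log2(CPM + 1), as a description, since sums of 1 library share its depth and make-up. They were Fbln1 for Igf1 (0.93), Adamtsl3 for Igf2 (0.84), Ywhae for Igf1r (0.77), Heph for Igfbp2 (0.81), Gprin3 for Igfbp3 (0.91), Tmod3 for Igfbp4 (0.91), Ecm1 for Igfbp5 (0.95), Thbs4 for Igfbp6 (0.92), Htra1 for Igfbp7 (0.96) and Rgs6 for Pappa2 (0.79). The second and the third genes were Sult1a1 and Loxl1 for Igf1, Dexi and Prrx1 for Igf2, Wdr37 and Psmd14 for Igf1r, Gm19299 and Gm20619 for Igfbp2, Fmo2 and Grm7 for Igfbp3, Nhsl2 and Mgst1 for Igfbp4, Rarres2 and Tmem140 for Igfbp5, Dkk3 and Meox2 for Igfbp6, Ehd2 and Cavin3 for Igfbp7, and Adra1b and Mgp for Pappa2.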

How the data were processed

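Single-cell RNA-seq libraries had been made with a 10x 3′ kit, and the authors deposited raw UMI counts per gene and barcode (Cell Ranger 7.1.0 and mm10 per the submitters' processing notes; the annotation version is not given in the sources used here). Here cells with under 200 genes or over 20% mitochondrial UMIs, and likely doublets by a simulated-doublet score (0.8% per 1000 cells), were removed (51, 362 and 837 doublets in libraries 1, 2 and 3). Over all barcodes, before these filters, libraries 1, 2 and 3 held 20985636, 79905165 and 69890252 UMIs. Gate thresholds were set after the marker values were seen. The members and gene lists were chosen with earlier results of these data known. All 10 members are named in every comparison, as are up to 3 called pathway genes in each direction and the 3 most alike genes of each member. UMI sums of classes with at least 20 cells were tested together with edgeR 4.0.16 in R 4.3.3 (two-sided, gate markers left out). The replicate number marks the library, which supplies every class from the same suspension, and was the block. On simulated data for CAR-like against osteoblast-like cells (12319 genes, 100 changed per fold), 46% of 2-fold and 90% of 4-fold changes were recovered, with 6 false calls. All classes there shared the same mean profile apart from the changed genes, with no library effect, so these figures may not carry over to the real comparisons. Intervals and limits cover counting error only, and ratios from counts pooled the libraries without the block. Alternatives covered the cell filter, doublets, gates, cells per sum, normalisation, expression filter, test (DESeq2 1.42.0), block and each library.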

Additional observations from a re-analysis of the deposited data

How the results depend on the processing

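Of 831 member values under the alternatives, 745 stayed on the same side of the threshold, 60 lost the call and 21 gained it. The 745 include changes of sign with no call in either fit, such as Igf2 for CAR-like against fibroblast-like cells without library 1. The other 5 reversed in sign with a call in at least 1 fit. The reversals were Igf1 in hypertrophic cells (−2.70 with stricter gates, −2.55 with at least 50 cells per sum, and −2.51 to 1.24 when each library was left out in turn, the lowest without library 1), Igfbp2 in hypertrophic cells (−1.56 with 50 cells) and Igf1 in superficial cells (−1.49 with stricter gates). With DESeq2 the members called were 2 for CAR-like against fibroblast-like, 0 for tendon-like, 1 for hypertrophic, 3 for superficial and 0 for Lef1-Notum cells. Without the replicate block they were 3 for CAR-like against fibroblast-like, 1 for tendon-like and 1 for Lef1-Notum cells. Tendon-like counts were 1 with 50 cells per sum, where 1 tendon-like sum remained and was assumed to vary like the other classes, and 6 with no filter by expression, the hypertrophic count was 3 with no doublet removal, and the Lef1-Notum count was 1 with no cell filter and 1 with looser gates. Leaving out each library in turn gave 3 to 5 (osteoblast-like against growth-plate), 0 to 3 (tendon-like), 0 to 5 (hypertrophic), 2 to 6 (superficial) and 0 to 4 (Lef1-Notum) members called, and 4 to 5 for CAR-like against fibroblast-like. CAR-like against osteoblast-like stayed at 7 without any one library. Igfbp5 in CAR-like cells was 4559 CPM with no doublet removal, and Pappa2 in Lef1-Notum cells was 160.0 CPM with stricter and 90.7 CPM with looser gates. Shares of cells with a UMI, without thinning, were 61.6% for Igf1, 13.2% for Igf2 and 95.9% for Igfbp6 in tendon-like, 70.6% for Igf1r in leukocyte-like, 59.2%, 98.7% and 97.6% for Igfbp3, Igfbp4 and Igfbp5 in CAR-like and 33.9% for Pappa2 in Lef1-Notum cells. The cause of these changes was not tested. Over all genes, calls without library 2 and without library 3 were 1666 and 1867 in place of 4043 for CAR-like against osteoblast-like, 1426 and 1607 (2896) against fibroblast-like, 212 and 427 (768) for tendon-like, 2453 and 2697 (6358) for osteoblast-like against growth-plate, 989 and 1230 (5193) for superficial, 298 and 414 (2332) for hypertrophic and 0 and 0 (598) for Lef1-Notum cells. With 50 cells per sum they were 484 for tendon-like (again from that 1 sum) and 1100 for Lef1-Notum cells, and the latter had 340 with looser gates and 954 with no filter by expression. Counts without 1 library rest on fewer samples. Depth limits Igfbp2 (119 UMIs in all) and the osteoblast-like class (median 2254 UMIs per cell).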
